A study of Mus musculus with 6 samples.

Results

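*Slpi*, *Cacna1s*, *Cd93*, *Trp53inp1* and *Tmem52* are 5 of the 31053 genes counted in single germinal center (GC) B cells. They form a group because, among genes that a plasma cell list holds, they stood lower in centroblasts of mice labelled as missing 1 copy of *Smc3*. Their difference between genotype labels in centroblasts therefore chose them, so it is described below without a test. Other cell classes were not used for that choice of direction and were tested, although the libraries are the same. Among them, dividing germinal center cells in S phase are not cleanly apart from centroblasts, so their test is not separate from that choice.

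In the germinal center, B cells divide and mutate their antibody genes in the dark zone as centroblasts, compete for antigen and T cell help in the light zone as centrocytes, and either return to the dark zone or leave as memory B cells or plasmablasts, which mature into antibody-secreting plasma cells. Plasma cell differentiation replaces the B cell program with one for building and secreting protein. *Smc3* encodes a core subunit of cohesin, the ring complex that holds sister chromatids together and extrudes chromatin loops.

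Spleens of mice given sheep red blood cells as antigen were the source of the sorted cells. The 10x Chromium assay used on them counts unique molecular identifiers (UMIs) near the 3′ end of each transcript. There were 3 libraries of the wild-type control, written *Smc3* wt/wt, and 3 libraries labelled *Smc3* wt/-. Both groups carried *Cγ1*-Cre, a recombinase driven from the *Ighg1* locus, which acts in B cells after activation, so that cells without that history in the same sort keep the undeleted allele. The age and sex of the mice were not given in the labels. The files held 22939 cell barcodes with 156055938 UMIs, or 5223325 to 35354257 per library, and 20809 cells were kept after filtering, in 16 clusters.

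Clusters were named by markers. The centroblast-like (CB-like) class held 6474 cells, the centrocyte-like (CC-like) class 1356, the plasmablast-like (PB-like) class 604 and the plasma cell-like (PC-like) class 1453. The term plasma-lineage covers the PB-like and PC-like classes. Levels are counts per 1000000 UMIs (CPM) of the summed cells of a class in 1 library, so they reflect a level within the class and not how many such cells there were. Values are not divided by transcript length, which 3′ counting does not need, but capture differs between genes, and levels are compared here only within a gene.

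Replicate 2 labelled *Smc3* wt/- stood apart from the other libraries. Plasma-lineage cells made up 48.8% of its kept cells, against 1.35% to 3.46% in the other 5, and CB-like cells 4.24%, against 31.7% to 39.7%. Its 151 CB-like cells carried 3.68% immunoglobulin UMIs, against 1.55% to 1.73% in the other libraries, and 118.6 CPM of the neutrophil protease transcript *Elane*, against at most 0.164 CPM. All 16 myeloid markers together summed to 1045 CPM there, against 393 to 425 CPM elsewhere. The part of these transcripts in the differences below was not tested, and the genotype differences of the 5 genes and of the gene lists are given with and without that library. Pairs of libraries shared 4 to 43 cell barcodes, at most 0.946% of the smaller library. Transcripts from the Y chromosome reached 189 and 175 CPM in *Smc3* wt/wt replicates 1 and 2 and 54.2 CPM in replicate 2 labelled *Smc3* wt/-, and at most 0.0328 CPM in the other 3.

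The targeted gene did not separate the labels. *Smc3* in CB-like cells stood at 162, 177 and 158 CPM for *Smc3* wt/wt and 163, 116 and 189 CPM for the wt/- label. UMIs are counted near the 3′ end, outside the exon that the construct targets, and whether transcripts of the deleted allele are still counted was not tested, so this value does not check the genotype labels.

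*Slpi* encodes secretory leukocyte protease inhibitor, a secreted protein of WAP domains that blocks neutrophil elastase and cathepsin G. It lies on chromosome 2, from 164354070 to 164389095 on the reverse strand of GRCm38. *Cacna1s* encodes the pore subunit of the L-type calcium channel known from skeletal muscle, where it couples membrane voltage to the release of stored calcium. It lies on chromosome 1, from 136052750 to 136119822 on the forward strand, and *Gm37014* overlaps it on the same strand and *Gm37759* on the other, so reads in the shared stretches are uncertain. *Cd93* encodes a C-type lectin-like receptor known from endothelium and early B cells, and from plasma cells that persist in the bone marrow (chromosome 2, 148436640 to 148443563, reverse strand). *Trp53inp1* encodes a nuclear protein induced by p53 under stress, which also takes part in autophagy (chromosome 4, 11156431 to 11174379, forward strand). *Tmem52* encodes a small membrane protein (chromosome 4, 155469114 to 155470858, forward strand).

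The sequence before the transcription start was available for 2 of the 5 genes, in RefSeq coordinates of GRCm38.p6, and is shown because both genes reached their highest mean level in PB-like cells. Capitals mark E-boxes (CANNTG), the letters bound by basic helix-loop-helix factors such as E2A, a regulator of B cell genes. The *Slpi* stretch, chr2:164356508-164356757 on the reverse strand, lies inside the longer annotated gene, before the RefSeq start.
*Slpi*: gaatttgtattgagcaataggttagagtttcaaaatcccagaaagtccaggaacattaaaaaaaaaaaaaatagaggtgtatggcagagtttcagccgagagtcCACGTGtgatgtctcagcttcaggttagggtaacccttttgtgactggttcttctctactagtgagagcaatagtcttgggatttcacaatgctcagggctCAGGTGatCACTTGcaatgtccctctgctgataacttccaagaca
*Cacna1s*, chr1:136052561-136052749, forward strand: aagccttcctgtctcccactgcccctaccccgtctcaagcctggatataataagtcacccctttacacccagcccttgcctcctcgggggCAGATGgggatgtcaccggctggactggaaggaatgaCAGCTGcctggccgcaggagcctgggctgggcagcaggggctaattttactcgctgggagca
The *Slpi* stretch of 250 bases held 3 E-boxes and that of *Cacna1s*, printed for 189 bases before the first annotated exon, held 2. At least 1 E-box occurred in 66.2% of 32851 promoter stretches of 250 bases, at least 3 in 12.2% and at least 2 in 31.8%. The first E-box of *Slpi* overlaps an ACGT core, the letters bound by XBP1 and other basic leucine zipper factors, which 26.9% of the stretches held on either strand. Neither stretch held the octamer ATGCAAAT or the TATA box TATAAA, which 1.601% and 12.4% of the stretches held.

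In CB-like cells all 5 genes had a lower mean in libraries labelled *Smc3* wt/-, as the choice of genes required. *Slpi* stood at 132, 77.9 and 71.2 CPM in *Smc3* wt/wt replicates 1 to 3 and at 66.2, 95.1 and 35.8 CPM in replicates 1 to 3 labelled *Smc3* wt/-. Replicate 2 labelled *Smc3* wt/- was higher than 2 of the 3 *Smc3* wt/wt libraries, so the groups overlapped. In that library 1 cell held 30.6% of its 85 *Slpi* UMIs, while in the other libraries the top cell held at most 4.70%. The means were 93.6 ± 33.1 and 65.7 ± 29.6 CPM (SD, n = 3 each), and 51.0 ± 21.4 CPM (n = 2) without replicate 2 labelled *Smc3* wt/-. The fitted log2 fold change, *Smc3* wt/- over wt/wt here and throughout, was -0.51 with all libraries and -0.87 without that replicate. It was -0.16 without replicate 3 labelled *Smc3* wt/-, -0.29 without *Smc3* wt/wt replicate 1 and -0.28 with sex as a covariate.

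*Cacna1s* and *Trp53inp1* were each low in the same pair of libraries. *Cacna1s* stood at 28.9, 27.8 and 25.4 CPM for *Smc3* wt/wt and 20.7, 33.6 and 20.2 CPM for the wt/- label. *Trp53inp1* stood at 31.6, 25.2 and 25.6 CPM against 20.3, 27.97 and 20.4 CPM. For both genes replicates 1 and 3 labelled *Smc3* wt/- were below every *Smc3* wt/wt library, and replicate 2 was not. The log2 fold change was -0.23 for *Cacna1s* and -0.29 for *Trp53inp1*, and -0.44 and -0.41 without replicate 2.

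*Cd93* and *Tmem52* were scarce in CB-like cells, and both genotype groups were apart. *Cd93* had 3, 17 and 21 UMIs in *Smc3* wt/wt (1.97, 1.41 and 1.54 CPM) and 3, 1 and 7 UMIs in libraries labelled *Smc3* wt/- (0.548, 1.12 and 0.574 CPM). *Tmem52* stood at 5.92, 6.81 and 6.89 CPM in *Smc3* wt/wt, from 9, 82 and 94 UMIs, and at 3.66, 1.12 and 3.69 CPM in libraries labelled *Smc3* wt/-, from 20, 1 and 45 UMIs. For these genes 2 of the values rest on 1 UMI each, both in replicate 2 labelled *Smc3* wt/-. The *Tmem52* means were 6.54 ± 0.539 and 2.82 ± 1.47 CPM (SD, n = 3 each), a 2.32-fold lower mean, which became 1.78-fold without replicate 2. The log2 fold change was -1.35 for *Cd93* and -0.99 for *Tmem52*, and -1.44 and -0.91 without that replicate.

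Every library labelled *Smc3* wt/- was below every *Smc3* wt/wt library for 2 of the 5 genes, *Cd93* and *Tmem52*, beside 4.67% of the 10074 genes tested in CB-like cells. Without replicate 2 this held for 5 of 5, beside 8.1% of genes. Nothing is read from these counts, since the genes were chosen on this contrast. By edgeR 0 genes of the class passed an adjusted p of 0.05 (203 had an unadjusted p under 0.05), and by DESeq2 3 did (0.0298%), none of them among the 5.

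**Figure D1:**
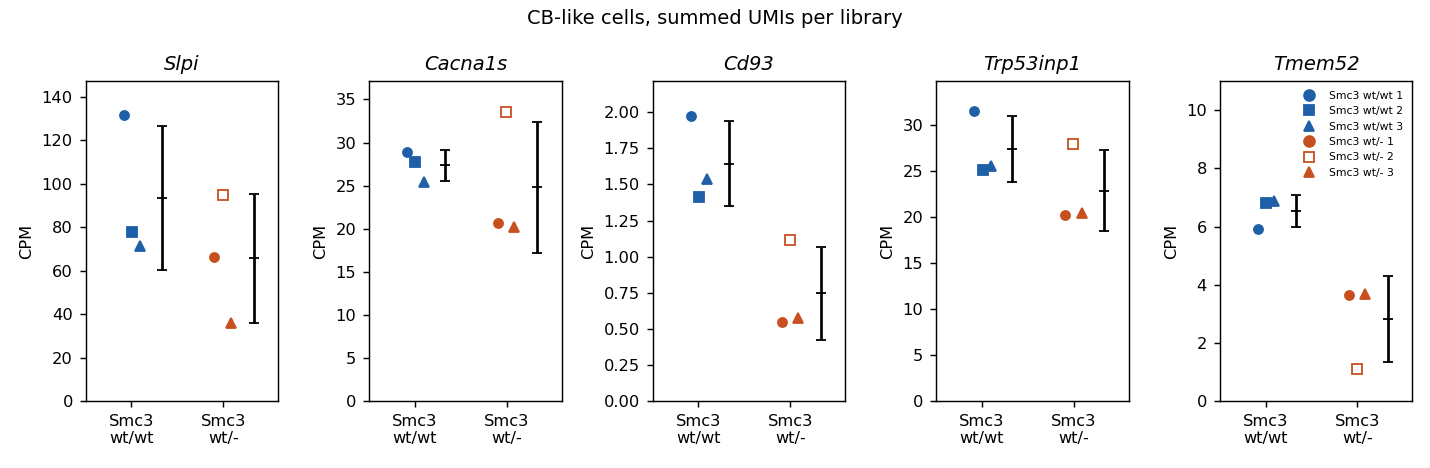
Level of each gene in CB-like cells, in CPM of summed UMIs on linear axes from 0, with 1 point per library and the bars giving mean and SD over the 3 libraries of each genotype label. Replicate 2 labelled *Smc3* wt/- (open square) lies above some *Smc3* wt/wt libraries for *Slpi*, *Cacna1s* and *Trp53inp1*, and no library overlaps between labels for *Cd93* and *Tmem52*.

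Across cell classes the 5 genes did not share 1 pattern. *Slpi*, *Cd93* and *Trp53inp1* were higher in plasma-lineage than in CB-like cells in 6 of 6 libraries by a wide margin, *Cacna1s* by a small one. *Tmem52* was counted at or near 0 in PC-like cells, of which most libraries held few. The name of a plasma gene thus goes with the levels of the first 3, while *Cacna1s* in PC-like cells lay within the range of other B cell classes, and *Tmem52* had its highest class mean in PB-like cells. Classes are clusters of the same cells, so these contrasts are given without a test. Neither these 5 genes nor the other plasma genes entered the clustering.

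*Slpi* had a wide span between classes. In PB-like cells it reached 13432, 6684 and 6658 CPM for *Smc3* wt/wt and 6805, 1023 and 3673 CPM for the wt/- label. Replicate 2 labelled *Smc3* wt/- was the lowest, and 1 of the 24 PB-like cells of *Smc3* wt/wt replicate 1 held 35.9% of that library's *Slpi* UMIs there. PC-like cells held 920, 1051 and 719 CPM against 344, 1198 and 650 CPM, from as few as 11 cells in a library. On the log2(CPM + 1) scale plasma-lineage exceeded CB-like cells by 5.85 ± 1.10 (SD, n = 6), and by 6.29 ± 0.16 without replicate 2 labelled *Smc3* wt/- (n = 5). Over the 7 B cell classes the order of *Slpi* means ran from PB-like through PC-like, recycling-like, naive or memory B-like, CB-like and CC-like to S-phase GC B-like cells, and only PC-like and recycling-like cells were neighbours whose libraries did not overlap.

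Recycling-like cells, which carry the *Myc* program of light zone cells re-entering the cycle, had 146 CPM or more of *Slpi* in 5 libraries and 122 CPM in the sixth, above CB-like cells in 6 of 6 libraries. CC-like cells did not stand apart from CB-like cells, being higher in 3 libraries and lower in 3. The mean log2 difference was -0.11 ± 0.54 (SD, n = 6).

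The share of cells with a *Slpi* UMI followed the levels over CB-like, CC-like and PB-like cells, but not between the plasma classes. Unthinned, 1266 of 1453 PC-like and 393 of 604 PB-like cells had a UMI, although the mean level was higher in PB-like cells. Of these PC-like cells 1378 came from replicate 2 labelled *Smc3* wt/-. After each cell was thinned to 2000 UMIs, 9.51% of CB-like cells had at least 1 (95% exact interval 8.80% to 10.3%, 600 of 6307 cells), 8.35% of CC-like cells (6.91% to 9.97%) and 49.8% of PB-like cells (45.7% to 53.9%). The PB-like share was 78.4% without replicate 2 labelled *Smc3* wt/-, whose own share was 30.4%. T cell-like cells, which should lack the gene, gave 4.62% (2.02% to 8.91%, 8 of 173 cells), with a median depth before thinning of 1207 to 1948 UMIs per library against 4085 to 7329 in CB-like cells. The CB-like share in *Smc3* wt/wt was 17.3%, 10.6% and 10.3%, and 9.72%, 9.15% and 6.25% in libraries labelled *Smc3* wt/-, a description within the contrast that chose the gene, whose CPM overlapped between the labels. Without thinning the shares were 23.4% of CB-like, 17.3% of CC-like, 65.1% of PB-like and 4.36% of T cell-like cells. These intervals cover counting error only.

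*Trp53inp1* was lower in CC-like than in CB-like cells in 6 of 6 libraries. CC-like cells held 5.66, 5.14 and 6.96 CPM for *Smc3* wt/wt and 7.0, 2.38 and 7.30 CPM for the wt/- label. The mean log2 difference was -2.00 ± 0.65 (SD, n = 6), and -1.78 without replicate 2 labelled *Smc3* wt/-, where 1 UMI was counted. Recycling-like cells were lower than CB-like cells in 6 of 6 libraries as well. A cluster of 3511 cells with *Cd79a* and low levels of S-phase markers, led by haemoglobin transcripts and left unnamed, held a median of 29.4 CPM (23.0 to 31.7), near the CB-like level. At resolution 1 a cluster of 1531 cells, also led by such transcripts and unnamed, had *Cd83* and *Il4i1* among its leading genes. The CC-like class may therefore not hold all light zone cells. PB-like cells held 118 to 200.2 CPM and PC-like cells 137 to 283 CPM, with no overlap with the CB-like libraries. Plasma-lineage cells exceeded CB-like cells by 2.52 ± 0.22 on the same scale. The share of CB-like cells with a UMI after thinning, 4.74%, was below that of T cell-like cells, 9.83%, which hold the gene themselves at 7.87 to 66.2 CPM, so no class here gave a background for it. Unthinned, 14.6% of CB-like and 9.66% of T cell-like cells had a UMI, at unequal depth.

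**Figure D2:**
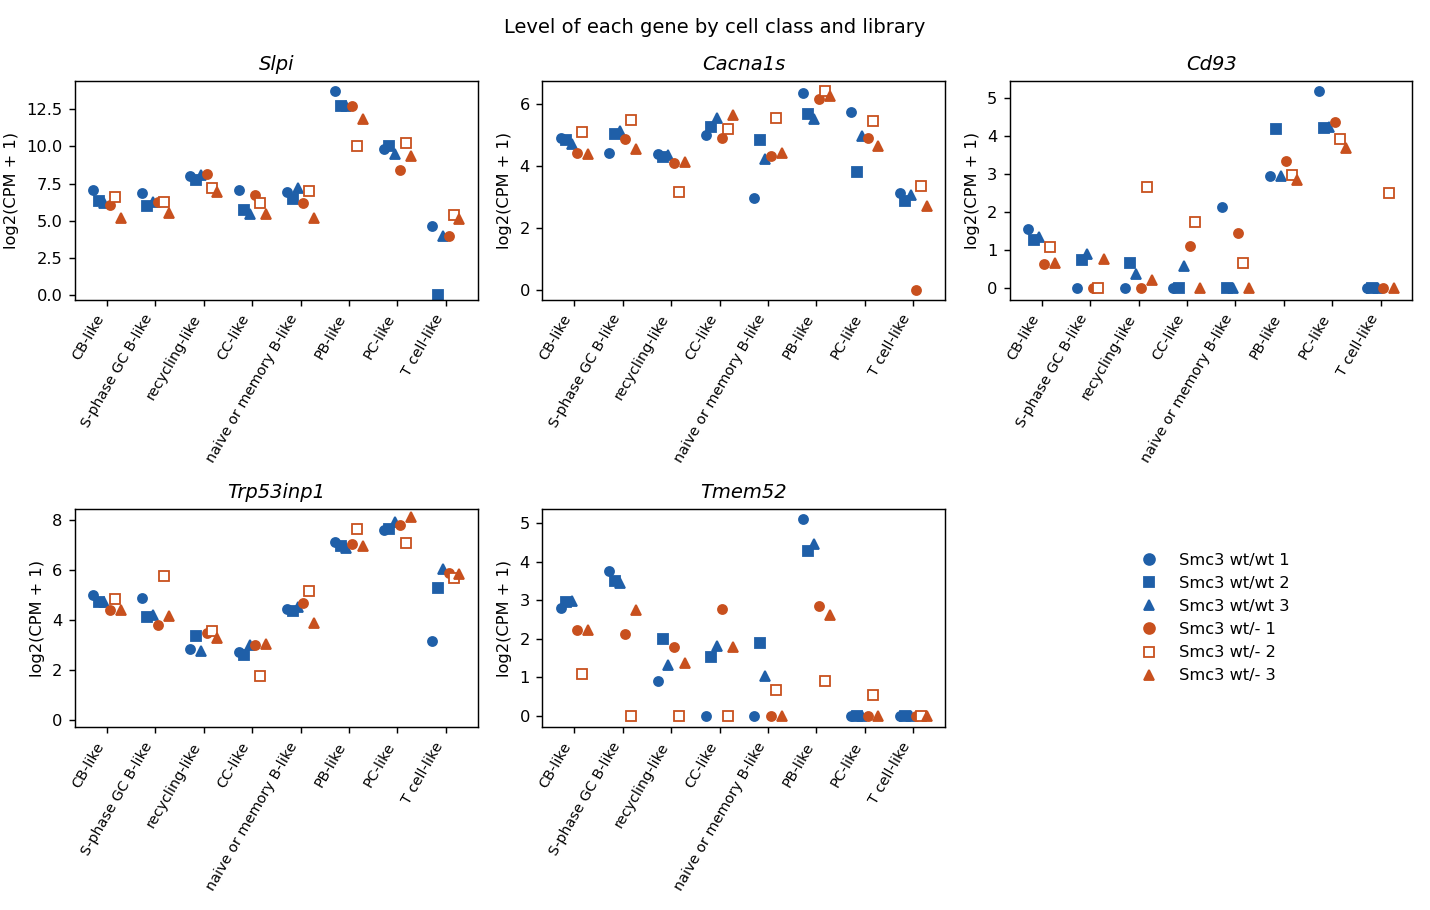
Level of each gene, as log2(CPM + 1) of summed UMIs, in 8 cell classes, with 1 point per library. *Slpi*, *Cd93* and *Trp53inp1* rise in PB-like and PC-like cells in every library, *Cacna1s* overlaps between neighbouring classes, and *Tmem52* is at 0 in the PC-like cells of 5 libraries.

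Among the B cell classes *Cd93* had its highest means in PC-like and PB-like cells, whose libraries lay above all those of CB-like cells. PC-like cells held 35.7, 17.7 and 18.0 CPM for *Smc3* wt/wt and 19.6, 14.3 and 12.04 CPM for the wt/- label, and PB-like cells 6.23 to 17.3 CPM. PC-like cells were higher than PB-like cells in 6 of 6 libraries, though the ranges overlapped, and 5 of these PC-like values rest on 2 to 7 UMIs. CC-like cells had at most 1 UMI per library. Plasma-lineage cells exceeded CB-like cells by 2.57 ± 0.35 on the log2(CPM + 1) scale (SD, n = 6).

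*Cacna1s* was counted in all B cell classes, and no neighbours in the order of its class means had libraries apart. PB-like cells held the highest mean, at 81.2, 50.8 and 45.6 CPM for *Smc3* wt/wt and 71.3, 85.4 and 76.8 CPM for the wt/- label. CC-like cells, at 29.2 to 49.6 CPM, were above CB-like cells in 6 of 6 libraries, by a mean log2 difference of 0.53 ± 0.45 (0.62 without replicate 2 labelled *Smc3* wt/-). Recycling-like cells were below CB-like cells in 6 of 6 libraries. PC-like cells held 13.3 to 53.6 CPM, a range that covers the CB-like libraries, with 67.9% to 71.3% of their UMIs from immunoglobulin genes. With immunoglobulin UMIs left out of the total, PC-like cells exceeded CB-like cells by 1.84 ± 0.69 instead of 0.20 ± 0.64, so the order of these classes depends on that total. T cell-like cells held at most 9.32 CPM.

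*Tmem52* differed between the plasma classes. On the log2(CPM + 1) scale PB-like cells exceeded CB-like cells by 0.996 ± 0.896 (SD, n = 6), with 5 of 6 libraries higher, and by 1.23 ± 0.76 without replicate 2 labelled *Smc3* wt/- (n = 5), while PC-like cells were lower in 6 of 6. PC-like cells had 0 UMIs in 5 libraries and 10 UMIs among the 1378 cells of replicate 2 labelled *Smc3* wt/- (0.467 CPM). Those 5 libraries each held only 101822 to 389437 PC-like UMIs, so a count of 0 allows levels as high as in CB-like cells. With immunoglobulin UMIs left out of the total, PC-like cells were higher in replicate 2 labelled *Smc3* wt/- and lower in the other 5. PB-like cells held 33.8, 18.4 and 21.1 CPM for *Smc3* wt/wt and 6.20, 0.863 and 5.19 CPM for the wt/- label. S-phase GC B-like cells held 12.6, 10.3 and 10.0 CPM against 3.37, 0 and 5.68 CPM. In both classes every library labelled *Smc3* wt/- was below every *Smc3* wt/wt library, beside 6.83% of genes tested in PB-like and 4.55% in S-phase GC B-like cells. The count of 0 in S-phase cells rests on 57 cells with 296506 UMIs, so it allows a level near the lowest of *Smc3* wt/wt. The unnamed cluster of 3511 cells held 17.8, 13.4 and 14.03 CPM against 1.05, 9.17 and 9.13 CPM, so the gene was not limited to the named classes. No *Tmem52* UMI was found in 528 T cell-like cells, which allows a share of cells with a UMI of up to 0.568%.

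Outside the contrast that chose the genes, genotype labels were compared by edgeR within CC-like, plasma-lineage and other classes. In CC-like cells the difference in *Slpi* and *Cacna1s* had no fixed direction. *Slpi* stood at 133, 51.4 and 43.8 CPM for *Smc3* wt/wt and 107, 73.7 and 43.8 CPM for the wt/- label, so the groups overlapped fully. Its log2 fold change was 0.20 (adjusted p 0.9998 by edgeR, SE 0.41) and 0.14 without replicate 2 labelled *Smc3* wt/-, and leaving out *Smc3* wt/wt replicate 2 or 3 or replicate 1 labelled *Smc3* wt/- gave -0.02, -0.11 and -0.12. Leaving out *Smc3* wt/wt replicate 1 or replicate 3 labelled *Smc3* wt/- gave 0.60 and 0.55. *Cacna1s* had a log2 fold change of 0.02 (adjusted p 0.9998 by edgeR, SE 0.27), and 0.01 without replicate 2 labelled *Smc3* wt/-, with -0.28 to 0.26 over the single libraries left out. *Cd93*, *Trp53inp1* and *Tmem52* had too few UMIs to pass the filter on low counts in CC-like cells with all libraries. Of the 2 genes tested, 0 had all libraries labelled *Smc3* wt/- below all *Smc3* wt/wt libraries, beside 4.68% of 7675 genes, or 7.35% without replicate 2 labelled *Smc3* wt/-. In this class edgeR and DESeq2 each called 0 genes, while 155 by edgeR and 67 by DESeq2 had p below 0.05 before adjustment.

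In plasma-lineage cells *Tmem52* had the largest difference of the 5 genes. It stood at 24.5, 14.8 and 15.9 CPM in *Smc3* wt/wt, from 10, 17 and 25 UMIs, and at 5.35, 0.523 and 4.43 CPM in libraries labelled *Smc3* wt/-, from 4, 13 and 5 UMIs. The groups did not overlap, and the mean of 18.4 ± 5.35 CPM was 5.36 times that of 3.43 ± 2.56 CPM (SD, n = 3 each), or 3.76 times without replicate 2. The log2 fold change was -2.60 (SE 0.47, 95% interval -3.68 to -1.52), where edgeR gave p 0.000482 before and 0.840 after adjustment over 5922 genes. The gene passed the filter on low counts only through the *Smc3* wt/wt libraries, where it is high, so its presence among the genes tested is not independent of this difference. It did not pass the threshold, and its adjusted p ran from 0.0628 to 0.99999 over the alternatives, with 0.309 by DESeq2. Without replicate 2 the log2 fold change was -1.92.

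The plasma-lineage class mixes PB-like and PC-like cells in unlike proportions, and replicate 2 labelled *Smc3* wt/- held 1378 PC-like cells of 1737, where *Tmem52* is scarce. Within PB-like cells alone the values given above have means of 24.5 ± 8.25 and 4.08 ± 2.84 CPM (SD, n = 3 each), 5.99-fold apart, and 4.29-fold without replicate 2. These are 10, 17 and 25 UMIs in 3, 11 and 8 cells of *Smc3* wt/wt, and 4, 3 and 5 UMIs in 2, 2 and 4 cells of libraries labelled *Smc3* wt/-. The log2 fold change was -2.58 (SE 0.49), where edgeR gave p 0.000397 before and 0.727 after adjustment over 5781 genes, and here too the gene passed the filter only through the *Smc3* wt/wt libraries. The PB-like cells of replicate 2 labelled *Smc3* wt/- also stood apart, with 44.0% immunoglobulin UMIs against 12.3% to 17.2% in the other libraries, and with all 14 PC-like markers summing to 72521 CPM against 19665 to 29924 CPM and all 16 CB-like markers to 572 CPM against 1628 to 2505 CPM, whose part in the difference was not tested. Non-overlap in this direction held for 1 of the 4 genes tested, *Tmem52*, beside 6.83% of genes in PB-like cells (7.23% without replicate 2), and for 1 of 5 beside 3.66% in plasma-lineage cells (3.95%). By edgeR and by DESeq2 0 genes were called in either class, with 386 and 231 genes of PB-like and 235 and 175 of plasma-lineage cells at p below 0.05 before adjustment. Without replicate 2 edgeR called 1 gene in each (0.0162% and 0.0158%), no member.

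In S-phase GC B-like cells *Tmem52* had means of 10.99 ± 1.43 and 3.02 ± 2.86 CPM (SD, n = 3 each), 3.64-fold apart, and 2.43-fold without replicate 2. The log2 fold change was -1.20 (SE 0.34, unadjusted p 0.00513, edgeR adjusted p 0.9998), and -1.11 without that replicate. This was 1 of the 4 genes tested, beside 4.55% of 8849 genes that did not overlap in this direction, or 7.42% without replicate 2. In this class edgeR called 0 genes (243 at p below 0.05 before adjustment), DESeq2 1 (0.0113%) and edgeR without replicate 2 1 (0.0106%), none a member. *Tmem52* passed the adjusted threshold in none of the classes tested. These classes come from the same libraries that chose the gene in CB-like cells, and in *Smc3* wt/wt the plasma-lineage UMIs of the gene are those of the PB-like cells. S-phase GC B-like cells are not cleanly apart from CB-like cells. The largest CB-like cluster, of 3588 cells, held 4159 CPM of S-phase markers, against 5074 CPM in the S-phase class. At resolution 1 *Smc3* wt/wt replicate 2 had 1293 instead of 1743 CB-like and 1157 instead of 785 S-phase GC B-like cells. The S-phase test is thus not separate from the choice of the gene. Libraries labelled *Smc3* wt/- alone, with 0 CPM in replicate 2, would not have met the filter there. In CC-like cells, where *Tmem52* did not pass the filter with all libraries, its means were 1.45 CPM for *Smc3* wt/wt and 2.76 CPM for the wt/- label (4.13 CPM without replicate 2), which is the other direction. In recycling-like cells they were 1.78 and 1.35 CPM, and 2.02 CPM without replicate 2.

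*Slpi* in plasma-lineage cells stood at 9995, 5576 and 5188 CPM for *Smc3* wt/wt and 5924, 1174 and 3229 CPM for the wt/- label. Replicate 1 labelled *Smc3* wt/- was above 2 of the *Smc3* wt/wt libraries, so the groups overlapped. The log2 fold change was -0.78 (adjusted p 0.840 by edgeR, SE 0.40) with and without replicate 2, and without *Smc3* wt/wt replicate 1, whose *Slpi* came to 35.0% from 1 cell, it was -0.40. In PB-like cells it was -1.14 (adjusted p 0.727 by edgeR, SE 0.48) and -0.82 without replicate 2. There *Slpi* was lower for the wt/- label in 3 of 3 same-numbered pairs, and the fit with the replicate number as a block gave -1.21 (adjusted p 0.469 by edgeR, SE 0.24). In the same cells *Cacna1s* and *Trp53inp1* had the other sign, with log2 fold changes of 0.91 (SE 0.37) and 0.77 (SE 0.42), and of 0.43 and -0.0048 without replicate 2, neither past the adjusted threshold of edgeR.

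For *Cacna1s*, *Cd93* and *Trp53inp1* in plasma-lineage cells the size of the difference, and for *Cd93* and *Trp53inp1* its direction, rested on replicate 2 labelled *Smc3* wt/- and on the scale. *Trp53inp1* stood at 155, 141 and 149 CPM for *Smc3* wt/wt and 143, 146 and 149 CPM for the wt/- label, with full overlap. Immunoglobulin UMIs took 66.4% of that replicate's plasma-lineage total, against 21.4% to 30.9% in the others, and the fit, which scales each library by genes that most libraries share, gave log2 fold changes of 0.80 (SE 0.51) for *Trp53inp1*, 0.96 (SE 0.46) for *Cacna1s* and 0.76 (SE 0.70) for *Cd93*. Without that library they were -0.15, 0.33 and -0.76. None passed the threshold (edgeR adjusted p 0.840 or above with all libraries).

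In the remaining classes no member passed the threshold by edgeR. *Slpi* in naive or memory B-like cells, which stand outside the germinal center reaction, stood at 120, 89.6 and 147 CPM for *Smc3* wt/wt and 73.7, 128 and 35.2 CPM for the wt/- label. Its log2 fold change was -0.49, and -1.27 without replicate 2 (unadjusted edgeR p 0.00149, adjusted p 0.9998). Non-overlap held for 0 of 3 genes there beside 3.26% of genes, and for 1 of 3, *Slpi*, beside 6.34% without that replicate. In recycling-like cells it held for 1 of 3, *Cacna1s*, beside 3.84%, or 7.21% without it. Before adjustment 137 genes of naive or memory B-like and 161 of recycling-like cells had an edgeR p below 0.05 (34 and 111 by DESeq2), and 0 were called by either tool.

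**Figure D3:**
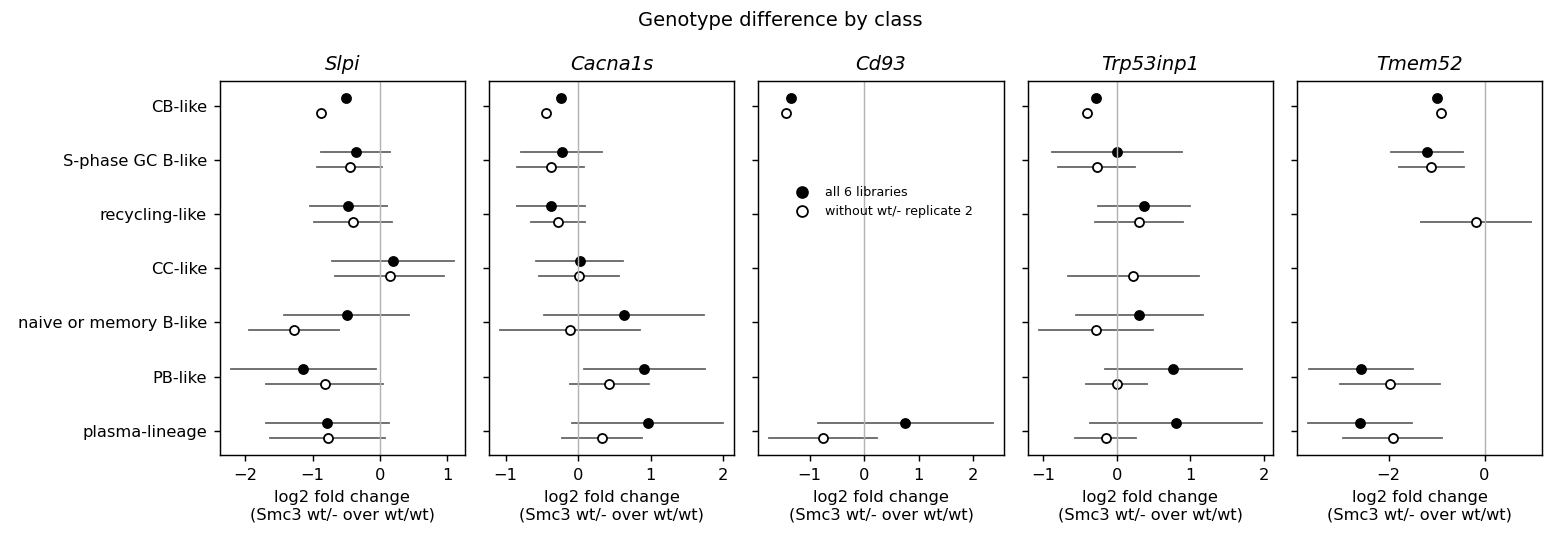
Log2 fold change of each gene between genotype labels in 7 cell classes, from edgeR, with all 6 libraries (filled) and without replicate 2 labelled *Smc3* wt/- (open), with 95% intervals outside CB-like cells. *Tmem52* lies at -2.60 in plasma-lineage and at -1.20 in S-phase GC B-like cells, and the points of *Cd93* and *Trp53inp1* in plasma-lineage cells change sign without that library.

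The other listed genes of the plasma cell program had no common direction in CB-like cells once replicate 2 labelled *Smc3* wt/- was left out. Of 17 listed genes 9 passed the filter there, 8 had a positive and 1 a negative log2 fold change, and their median was 0.13, against -0.00 over all genes tested. Without that library the split was 5 and 4 with a median of 0.04. *Jchain*, which joins IgA and IgM units, had a log2 fold change of 0.41 in CB-like cells (SE 0.22), *Mzb1*, a chaperone of antibody assembly, of 0.02 (SE 0.19), and *Sec11c*, a signal peptidase subunit, of 0.54 (SE 0.28). Without that library these were 0.15, 0.04 and 0.13. In plasma-lineage cells 17 of 17 had a positive log2 fold change with a median of 0.68, beside 0.02 over all genes, and 9 of 17 with a median of 0.01 without that library. Without it 14 of 17 were positive in PB-like cells alone, with a median of 0.17. In naive or memory B-like cells 11 of the 11 that passed the filter were, with a median of 0.37. All 14 markers that named the PC-like class, *Jchain*, *Mzb1* and *Sec11c* among them, are in this list of 17, so its level in plasma-lineage cells is not independent of that naming. None of the listed genes was called by edgeR.

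The p53 target genes, to which *Trp53inp1* belongs, were split. In CB-like cells 14 of 16 passed the filter, with 8 negative and 6 positive and a median of -0.04, and 7 of each with a median of -0.03 without replicate 2 labelled *Smc3* wt/-. *Bax*, which permeabilizes mitochondria, stood at 207 ± 25.4 CPM over the 6 libraries of the class (SD), with a log2 fold change of 0.18 (SE 0.13). *Btg2*, an antiproliferative gene, had -0.22 (SE 0.14), and *Mdm2*, the ubiquitin ligase of p53, 0.04 (SE 0.15). Without that library *Bax* had 0.17, *Btg2* -0.13 and *Mdm2* 0.14. Of the listed genes that passed the filter, 14 in CB-like, 9 in CC-like and 6 in plasma-lineage cells, edgeR called 0.

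Partners of the other members were mostly low. Of 20 voltage-gated calcium channel genes and partners 14 had a UMI in CB-like cells, but only *Ryr1*, the calcium release channel that *Cacna1s* gates in muscle, reached a mean of 5 CPM there (12.5 ± 5.002 CPM, SD, n = 6). The 7 that passed the filter in CB-like cells had 4 negative log2 fold changes and a median of -0.38, and 6 negative and a median of -0.34 without replicate 2 labelled *Smc3* wt/-, with 0 called by edgeR. In plasma-lineage cells *Ryr1*, *Cacna1e* and *Cacna1h* did, at 12.8, 13.2 and 8.80 CPM, with log2 fold changes of 0.40, 0.81 and 1.15, none called. Without replicate 2 labelled *Smc3* wt/- *Ryr1* turned to -0.51, *Cacna1e* had 0.34 and *Cacna1h* did not pass the filter. Of 11 WAP domain and neutrophil protease genes 3 reached 5 CPM in CB-like cells, *Elane*, *Ctsg* and *Prtn3*, which are targets or relatives of targets of *Slpi* and came from replicate 2 labelled *Smc3* wt/-, and 0 did in plasma-lineage cells, where *Elane*, *Wfdc17* and *Prtn3* had means of 0.703, 0.580 and 0.228 CPM. Of 6 relatives and ligands of *Cd93* and *Tmem52* 0 reached 5 CPM in any of these classes, and *Thbd*, *Igfbp7* and *Mmrn2* had 2.67, 2.62 and 0.522 CPM in plasma-lineage cells.

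Genes with the most similar profile were sought over 45 sums of class and library, as Pearson's r of log2(CPM + 1), given as a description since sums of 1 library share that library. *Slpi* was closest to *Sdf2l1*, *Manf* and *Edem1* (r = 0.886, 0.875 and 0.869), which are genes of protein folding and disposal in the endoplasmic reticulum. *Edem1*, *Mzb1* and *Sdc1* here were also markers of the PC-like class. *Cacna1s* was closest to *Manea*, *Mzb1* and *Txndc5* (0.849, 0.812 and 0.759). *Cd93* was closest to *Selenom*, *Sdc1*, the plasma cell surface marker CD138, and *Capn5* (0.835, 0.815 and 0.814). *Trp53inp1* was closest to *Erlec1*, *Edem2* and *Fndc3a* (0.841, 0.807 and 0.789), and *Tmem52* to *4933404K13Rik*, *Gnaz* and *Dyrk3* (0.818, 0.792 and 0.765). Over 36 sums without replicate 2 labelled *Smc3* wt/- the 3 closest genes kept 1, 1, 0, 2 and 1 of these for *Slpi*, *Cacna1s*, *Cd93*, *Trp53inp1* and *Tmem52*.

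**Figure D4:**
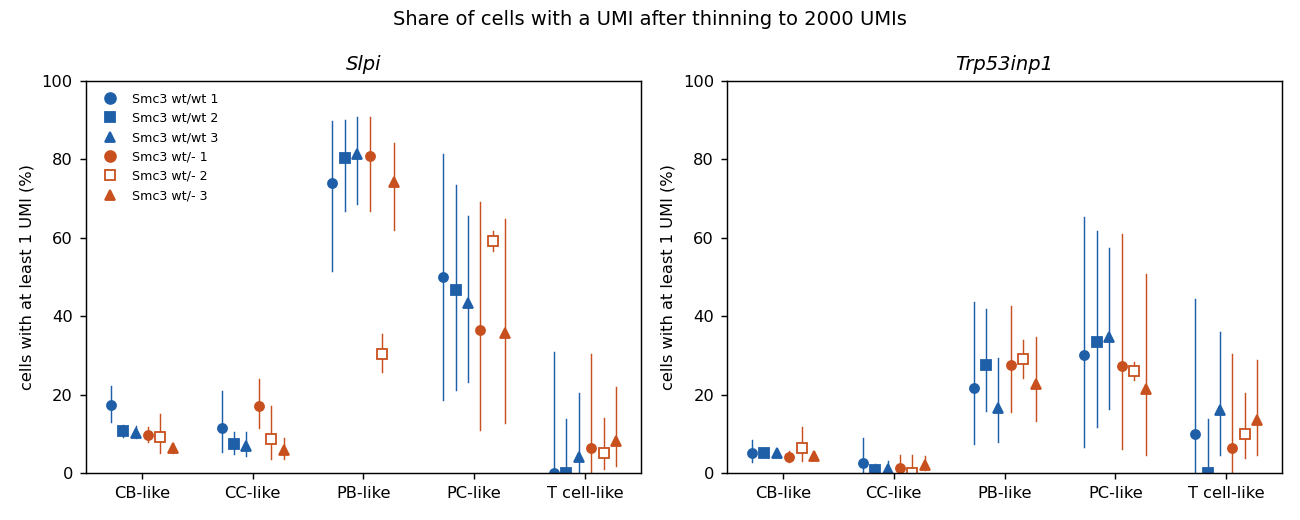
Share of cells with at least 1 UMI of *Slpi* or *Trp53inp1* after thinning each cell to 2000 UMIs, in 5 classes, with 1 point per library and 95% exact intervals that cover counting error only. In PB-like cells the *Slpi* share is 30.4% in replicate 2 labelled *Smc3* wt/- and 73.9% to 81.5% in the other libraries, and the pooled *Trp53inp1* share is 4.74% in CB-like, 1.29% in CC-like and 9.83% in T cell-like cells.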

How the data were processed

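The authors sequenced 10x Chromium single-cell 3′ libraries and deposited, per library, a matrix of UMI counts per gene and cell barcode, unnormalized. Submitters' processing notes and matrix headers name Cell Ranger (3.0.2), mm10, R 4.0.2 and Seurat 4.0.0.

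Cells with at least 500 genes and at most 10% mitochondrial UMIs were kept, and the highest Scrublet scores (0.8% per 1000 barcodes) were removed as doublets, 759 of 21568 cells. Libraries were integrated in Seurat 5.3.0 with 1875 variable genes and 30 components, without immunoglobulin, ribosomal, mitochondrial, member or listed plasma genes, and clustered at resolution 0.5. Clusters were named from fixed markers, with at least 3 raised 1.5-fold and, where none was among the 10 leading genes, a mean log2 fold of at least 0.5. A cluster whose leading gene was a haemoglobin transcript was left unnamed whatever its markers. The other 4 clusters stayed unnamed. The markers, the genes described and the gene lists were chosen with earlier results of these data known.

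UMIs were summed per library and class and tested by edgeR 4.0.16 (R 4.3.3; quasi-likelihood, TMM, low-count filter, Benjamini-Hochberg over all genes tested, threshold 0.05), with libraries as replicates. DESeq2 1.42.0 was an alternative, and its missing adjusted p-values stayed missing. The study describes sorting from several mice per genotype, but its number of wild-type mice is not the number of libraries analysed here, and no label ties a library to 1 mouse, so p-values measure only the spread between these libraries, which may be technical. Genes named were the 5 members, *Smc3*, from each list any gene called in CC-like or plasma-lineage cells or else the 3 with the highest plasma-lineage CPM, and the 3 most similar profiles per member that are not immunoglobulin genes. Genes named beyond this rule, *Elane* and *Ctsg* in CB-like cells among them, were chosen after their values were seen. Per-library levels of PC-like cells are printed although most libraries held fewer than the 20 cells set as minimum.

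Deviations of same-numbered libraries correlated at 0.23, 0.14 and 0.14 in CB-like cells and at 0.20, 0.16 and 0.19 in PB-like cells. Each pair also exceeded 0.1 in S-phase and naive or memory B-like cells. No label pairs the libraries, and what these correlations rest on was not tested. The p-values given for S-phase and naive or memory B-like cells came from fits without a block. Not every pair exceeded 0.1 in CC-like (0.16, 0.07 and 0.17), plasma-lineage (0.17, 0.06 and 0.15) or recycling-like cells (0.22, 0.06 and 0.10). On simulated counts for 200 genes changed by a log2 fold change of 1 or 2, edgeR recovered 82 and 176 in CB-like cells (9977 and 9966 genes run), 46 and 178 in CC-like cells (7469 and 7464) and 0 and 140 in plasma-lineage cells (5831 and 5851). It also called 7 and 15, 13 and 25, and 0 and 8 unchanged genes in these classes, a share of its calls above the threshold of 0.05 wherever it made calls. Promoter stretches came from RefSeq (GRCm38.p6) and were matched by symbol for 2 of 5 genes. Alternatives were other scaling, DESeq2, no low-count filter, no immunoglobulin genes, a replicate block, each library left out, doublets kept and resolution 1. Added after seeing the data were further classes, sex as a covariate from Y-linked transcripts, and leaving out replicate 2 labelled *Smc3* wt/- together with immunoglobulin genes.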

Additional observations from a re-analysis of the deposited data

Results flagged for a closer look

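Clusters left unnamed were outside the comparisons, and both results here are signals in them with no explanation weighed. *Slpi* reached a median of 4766 CPM over libraries, from 1577 to 7251, in a cluster of 62 cells led by *C1qa*, *Vcam1* and *C1qc*, genes known from macrophages, and had more than 3 UMIs in 6 of 6 libraries. *Cacna1s* stood at a median of 44.0 CPM, from 34.3 to 55.0, in a cluster of 3511 cells led by haemoglobin transcripts, also in 6 of 6 libraries. In that cluster *Tmem52* ranged from 1.05 to 17.8 CPM, with more than 3 UMIs in 4 libraries.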

How the results depend on the processing

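In CB-like cells, where the choice of genes set the direction, leaving out single libraries gave ranges of log2 fold change from -0.87 to -0.16 for *Slpi*, -0.44 to -0.09 for *Cacna1s*, -1.44 to -1.21 for *Cd93*, -0.41 to -0.17 for *Trp53inp1* and -1.17 to -0.91 for *Tmem52*. *Cd93* moved to -1.62 at resolution 1, and *Slpi* to -0.28 with sex as a covariate. In CC-like cells *Slpi* turned to -0.078 at resolution 1 and ranged from -0.12 to 0.60 with single libraries left out, and *Cacna1s* turned to -0.050 with sex as a covariate and ranged from -0.28 to 0.26. In plasma-lineage cells leaving out single libraries gave -0.76 to 1.13 for *Cd93*, -0.15 to 1.14 for *Trp53inp1*, 0.33 to 1.24 for *Cacna1s*, -0.95 to -0.40 for *Slpi* and -2.84 to -1.92 for *Tmem52*, and leaving out replicate 2 labelled *Smc3* wt/- with immunoglobulin genes gave -0.76 and -0.16 for the first 2. In PB-like cells *Trp53inp1* ranged from -0.0048 to 1.05. With 0 calls in every class there was no call for the replicate block to change, and it gave log2 fold changes of -1.21 for *Slpi* and -2.58 for *Tmem52* in PB-like cells (edgeR adjusted p 0.469 for both). Calls were 0 in both classes except 30 (CC-like) and 8 (plasma-lineage) without the low-count filter, none of them a member, and 0 to 1 in plasma-lineage cells with single libraries left out. Means in plasma-lineage cells without immunoglobulin UMIs were 90.6 CPM for *Cacna1s*, 20.02 for *Cd93* and 238 for *Trp53inp1*. Shares of CB-like, CC-like and PB-like cells with a *Slpi* UMI were 5.06%, 4.35% and 41.6% thinned to 1000 UMIs and 23.4%, 17.3% and 65.1% unthinned, and for *Trp53inp1* 2.58%, 0.369% and 18.0% and 14.6%, 3.47% and 65.2%. The closest profiles without replicate 2 labelled *Smc3* wt/- shared 1, 1, 0 and 1 of 3 genes for *Slpi*, *Cacna1s*, *Cd93* and *Tmem52*. The cause of these changes was not tested. All libraries but replicate 2 labelled *Smc3* wt/- held 24 to 68 PB-like and 11 to 23 PC-like cells.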
